A study of Mus musculus with 16 samples.

Results

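The mRNA levels of 10 genes that carry cytokine signals from the cell surface to the nucleus were compared in mouse skeletal muscle. The genes were the receptors Lifr, Il6st, Il6ra, Osmr, and Prlr, the kinases Jak1 and Jak2, and the transcription factors Stat3, Stat5a, and Stat5b. They were taken by gene name from a table of 82388 transcripts with 23235 gene names, in which they held 61 transcripts. The counts of their transcripts were summed per gene in each mouse.

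RNA was sequenced from 16 male C57BL/6J mice (C57BL/6 in the strain label) in 4 groups of 4, with 1 library per mouse, from animals that entered the study at 6 weeks of age. The control group ate a normal diet, the HFD group ate a high-fat diet for 8 weeks, which is a diet model of insulin resistance, and the HFD + RSV and HFD + MET groups then received resveratrol (a plant polyphenol) or metformin (a drug for type 2 diabetes) for 6 weeks. The labels name no genetic change, and the last 3 groups shared the diet. Whether the HFD mice and the treated mice had the same age and length of diet at collection is not given here. The study's methods say that some mice were injected with insulin before the muscle was taken, and the labels do not say whether the sequenced mice were among them. All 4 HFD mice carried the leading label number 7, which no other mouse carried. A cage or batch behind that number and the diet thus cannot be told apart. The same limit holds for each drug wherever a treated group is compared with the HFD group.

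In this pathway, a cytokine or hormone joins receptor chains, the JAK kinases bound to them phosphorylate the receptor, and STAT proteins dock there, are phosphorylated, and move to the nucleus to switch genes on. Il6st encodes gp130, the chain that interleukin-6, leukemia inhibitory factor, and oncostatin M receptors share, while Il6ra, Lifr, and Osmr encode the chains that give each ligand its specificity. Prlr encodes the prolactin receptor. Stat3 is the main STAT downstream of gp130, and Stat5a and Stat5b act downstream of growth hormone and prolactin. SOCS proteins are induced by STATs and block the receptors and kinases in turn. In muscle, the pathway is known for responses to exercise, injury, wasting, and growth hormone.

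On GRCm38, the 3 STAT genes formed a cluster on chromosome 11. Stat5b lay on the reverse strand (chr11:100780731-100850724), Stat5a on the forward strand (chr11:100859351-100885169), and Stat3 on the reverse strand (chr11:100885098-100939540), with the 3′ ends of Stat5a and Stat3 overlapping by 72 bases. Lifr, Osmr, and Prlr were all on chromosome 15, and 216 kb separated Lifr from Osmr. Il6ra was on chromosome 3 (chr3:89864059-89913196), Jak1 on chromosome 4 (chr4:101152367-101265282), Il6st on chromosome 13, and Jak2 on chromosome 19. Stat5a and Stat5b encode closely related proteins, and of the 7360 different runs of 50 bases in the Stat5a transcripts, 608 (8.26%) also occurred in Stat5b transcripts. Stat3 and Stat5a shared 23 runs on opposite strands, at their overlapping ends. No other pair of the 10 genes shared any.

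RefSeq promoter windows (250 bases before an annotated start site, GRCm38.p6) were found for all 10 genes, 15 windows in all, since some genes have several start sites. The 3 windows printed lie inside the spans of their genes, before a start site downstream of the first, and the other windows of these genes are not shown. The Stat5a window at chr11:100860234-100860483 and the Stat5b window at chr11:100822571-100822820 (reverse strand) are shown because they share a stretch next to their start sites. The capitals mark the longest run they share, AGGAAATCGCTGCTCT, and in the 63 bases compared around it without gaps, 53 were identical. The Prlr window at chr15:10223656-10223905 is shown because it was the 1 window of the 15 with a match to TTCNNNGAA, the letters of the site that STAT dimers bind, which reads alike on both strands. The match is in capitals and starts 110 bases before that start site. The same letters occurred in 7.02% of the 32851 windows of all genes.
Stat5a: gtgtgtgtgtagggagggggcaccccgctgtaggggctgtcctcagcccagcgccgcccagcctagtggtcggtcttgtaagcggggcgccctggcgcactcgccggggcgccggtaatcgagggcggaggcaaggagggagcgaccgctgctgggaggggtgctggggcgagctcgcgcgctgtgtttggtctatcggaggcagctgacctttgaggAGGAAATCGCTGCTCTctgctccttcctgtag
Stat5b: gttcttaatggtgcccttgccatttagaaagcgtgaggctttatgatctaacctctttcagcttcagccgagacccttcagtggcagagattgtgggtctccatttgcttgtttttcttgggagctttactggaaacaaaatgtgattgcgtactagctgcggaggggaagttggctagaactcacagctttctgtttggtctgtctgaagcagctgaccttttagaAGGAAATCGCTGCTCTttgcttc
Prlr: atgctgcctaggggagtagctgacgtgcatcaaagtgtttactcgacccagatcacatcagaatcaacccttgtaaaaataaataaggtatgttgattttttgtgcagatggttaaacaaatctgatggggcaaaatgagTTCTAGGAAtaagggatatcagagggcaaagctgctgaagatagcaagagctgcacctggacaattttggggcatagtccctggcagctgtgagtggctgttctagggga

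The 10 genes differed widely in level. As the median over 16 mice of FPKM summed over transcripts, which is a level per length, Jak1 was highest at 41.3 FPKM, followed by Stat5b at 30.4, Il6st at 25.8, Lifr at 20.9, Stat3 at 20.0, Jak2 at 13, Stat5a at 7.78, Osmr at 5.99, Il6ra at 2.73, and Prlr at 0.0671 FPKM. The ranges of neighbors in this order overlapped for all pairs except Il6ra and Prlr. Within a mouse, the order of neighbors was most mixed between Lifr and Stat3, where Lifr was higher in 10 of 16 mice, and between Stat5b and Il6st, where Stat5b was higher in 11 of 16 mice. Stat3 was above Jak2 in all 16 mice. The shared chain Il6st was near Lifr in level and above the specific chains Osmr and Il6ra in every mouse. Prlr was at the edge of detection, with 0 to 58 counts per mouse.

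**Figure D1:**
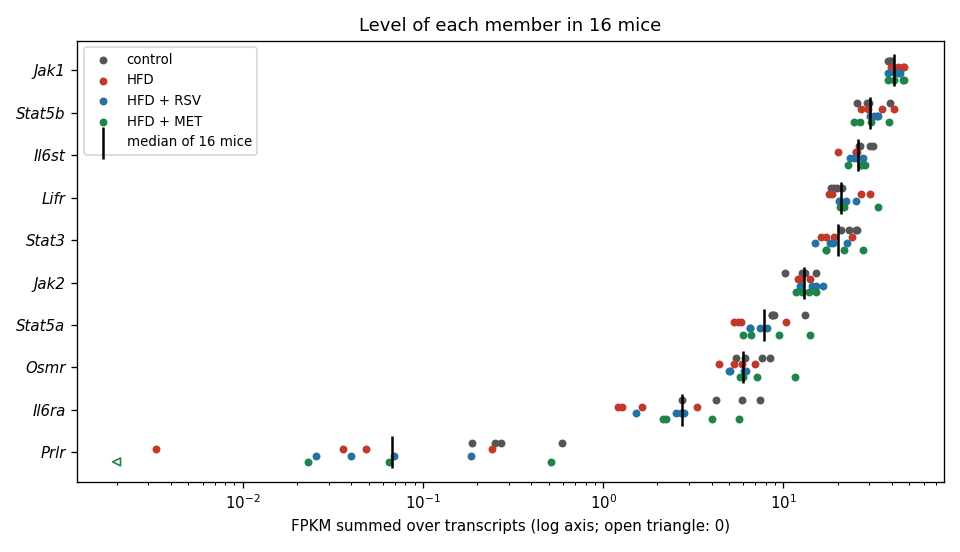
FPKM summed over transcripts (log axis) of each gene in each of 16 mice, colored by group, with the median as a vertical bar and an open triangle for the 1 mouse at 0. The medians run from 41.3 FPKM for Jak1 to 0.0671 FPKM for Prlr.

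Between mice, expressed as CPM (mRNA counts scaled to a common library size with TMM factors), Il6st and Lifr were the steadiest, with coefficients of variation over the 16 mice of 9.47% and 10.4%. Stat3 and Jak1 were at 12.0% and 12.2%, Jak2 and Stat5b at 15.4% and 15.5%, and Osmr and Stat5a at 17.5% and 22.3%. Il6ra varied by 53.6% and Prlr by 132%. Total mRNA counts were between 17625909 and 29761026 per mouse, and pairs of mice had rank correlations of gene counts of 0.946 to 0.989 within groups and 0.941 to 0.988 across groups. Markers of muscle fibers summed to 164000 to 315000 CPM in every mouse. The label of the extraction step names retinas, and the retina markers summed to 0.276 to 1.33 CPM, with 4 of 6 in the table. Counts of a bulk tissue cannot tell fewer cells of a type from less RNA per cell.

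The first comparison asked what the high-fat diet did to the genes. None of the 10 was called at an adjusted P < 0.05 by edgeR's quasi-likelihood test, whereas 2.43% of the 15364 genes tested were called. At an unadjusted P < 0.05 there were 2, Il6ra and Jak1, against 24.2% of all genes. These were also the 2 genes whose control and HFD mice did not overlap, against 18.3% of all genes, so both shares were near the background. All 10 genes passed the filter on low counts. Their median log2FC was -0.09, beside -0.02 over all genes, with 4 genes above 0 and 6 below.

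Il6ra, the interleukin-6 specific chain, had the largest difference among the well detected genes. Its CPM was 16.7, 22.2, 28.7, and 39.0 in the control mice and 12.5, 8.15, 10.3, and 16.4 in the HFD mice. The lowest control mouse was just above the highest HFD mouse. The log2FC was -1.17 (SE 0.36, 95% interval -1.94 to -0.40, adjusted P = 0.0801 by edgeR), a level at 0.444 of the control level. It rested on 196 to 357 counts in the HFD mice. As FPKM, the control range of 2.75 to 7.42 and the HFD range of 1.21 to 3.30 overlapped.

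Jak1, the kinase that gp130 receptors depend on, had the opposite sign. It was at 219, 188, 172, and 188 CPM in the control mice and at 244, 230, 249, and 235 CPM in the HFD mice. The HFD mice lay close together above all control mice, also as FPKM (38.1 to 39.4 against 39.6 to 46.9). Muscle fiber markers (8 of 8 in the table, none at 0 in every mouse) summed to 164000 to 292000 CPM in the control mice and 248000 to 315000 CPM in the HFD mice. The 2 mice with the lowest Jak1, HFD + MET mouse 3 (169 CPM) and control mouse 3 (172 CPM), had the lowest fiber sums, 175000 and 164000 CPM, and the part of fiber content in the Jak1 difference was not tested. The log2FC was 0.32 (SE 0.11, 95% interval 0.08 to 0.56), with an adjusted P = 0.112 by edgeR.

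Both genes were called in some other fits. With DESeq2, Il6ra (adjusted P = 0.0194) and Jak1 (adjusted P = 0.0467) were called, where 10.5% of genes were. They were also called by edgeR without HFD + MET mouse 3, which is in neither group but enters the common estimate of the spread (adjusted P = 0.0163 and 0.0349, with 10.4% of genes called). Without that mouse and control mouse 3, the mice with the highest Ucp1 of their groups, which were left out after the data were seen, Il6ra was called (adjusted P = 0.0458) among 3.61% of genes. With a log2FC beyond 1 in either direction and an unadjusted P < 0.05, Il6ra was the 1 gene called, against 4.94% of all genes. The log2FC of Il6ra was -1.17, -1.17, and -1.14 in the first 3 of these. Over all settings, the adjusted P was 0.0163 to 0.637 for Il6ra and 0.0349 to 0.286 for Jak1 by edgeR or DESeq2. The 0.637 by edgeR was that of the most abundant Il6ra transcript, adjusted over transcripts and not over genes.

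Markers of fat cells also differed between the mice. The 5 white adipocyte markers (Adipoq, Cfd, Lep, Plin1, and Retn), each with counts in every mouse, summed to 431 to 2110 CPM in the control mice, 43.6 to 516 in the HFD mice, 84.5 to 672 in the HFD + RSV mice, and 24.9 to 2190 in the HFD + MET mice. In HFD against control, the log2FC was -1.84 for Adipoq, -2.88 for Cfd, -1.91 for Plin1, and -1.88 for Retn. Lep had the opposite sign, at 1.4, and none of the 5 was called (adjusted P of 0.164 to 0.475 by edgeR). The mouse with the highest Il6ra of all, HFD + MET mouse 3 (41.1 CPM), had the highest sum (2190 CPM), and the HFD mouse with the highest Il6ra, mouse 4 (16.4 CPM), had the highest sum of its group (516 CPM). Control mouse 4, with the highest Il6ra of its group (39.0 CPM), had a sum of 947 CPM, below the 2110 CPM of control mouse 3 (28.7 CPM of Il6ra). The sum of the 4 brown adipocyte markers was 786 CPM in control mouse 3, 213 CPM in HFD + MET mouse 3, and at most 181 CPM in the other 14 mice. Without these 2 mice, the log2FC of Il6ra was -1.14. The white adipocyte sums of the control mice left were 700, 431, and 947 CPM, beside 80, 43.6, 227, and 516 CPM in the HFD mice. Leaving out the 2 mice thus did not even out these markers. The part of fat cells in the Il6ra difference was not tested.

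The other receptor chains had smaller differences between the HFD and control groups. Lifr, which pairs with gp130 for leukemia inhibitory factor, had a log2FC of 0.11 (95% interval -0.10 to 0.32), from 178 ± 15.6 CPM to 192 ± 14.7 CPM (mean ± SD, n = 4 each). Il6st was at 203, 216, 188, and 174 CPM in the control mice and at 173, 183, 141, and 184 CPM in the HFD mice, so that the groups overlapped (log2FC -0.20, 95% interval -0.41 to 0.02). Osmr, the oncostatin M chain, had a log2FC of -0.10 (95% interval -0.42 to 0.21). For Lifr, Il6st, and Osmr, the intervals lay between -0.42 and 0.32.

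Prlr had the largest log2FC of all, -2.14, with a 95% interval of -4.68 to 0.40 (adjusted P = 0.283 by edgeR). The counts were 16, 58, 8, and 4 in the control mice and 8, 1, 5, and 3 in the HFD mice. In the treated groups, 29 counts in HFD + RSV mouse 4 and 52 in HFD + MET mouse 3 stood apart from 0 to 7 counts in the others. In the mice with the 4 highest values, control mouse 2, control mouse 1, HFD + MET mouse 3, and HFD + RSV mouse 4, the white adipocyte sums were 431, 700, 2190, and 84.5 CPM, and the hepatocyte marker sums were 159, 66.2, 3.34, and 2.5 CPM. Neither list was high in all of these mice, and their part in the Prlr counts was not tested.

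Among the signal carriers, Jak2, the kinase of the growth hormone and prolactin receptors, had a log2FC of 0.13 (95% interval -0.20 to 0.46). Stat3 had a log2FC of -0.08 (95% interval -0.32 to 0.16), with 71.4 to 81.4 CPM in the control mice and 63.6 to 82.0 CPM in the HFD mice. The STAT5 genes differed in sign. Stat5a was at 35.5, 36.4, 45.5, and 32.5 CPM in the control mice and at 25.3, 24.6, 25.5, and 40.9 CPM in the HFD mice. HFD mouse 4 was the exception, since the other 3 HFD mice were below all control mice, and the log2FC was -0.37 (95% interval -0.79 to 0.05, adjusted P = 0.268 by edgeR). Stat5b was at 208, 150, 132, and 138 CPM in the control mice and at 192, 170, 184, and 210 CPM in the HFD mice. Here control mouse 1 was the exception, and the log2FC was 0.27 (95% interval -0.06 to 0.60, adjusted P = 0.298 by edgeR).

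**Figure D2:**
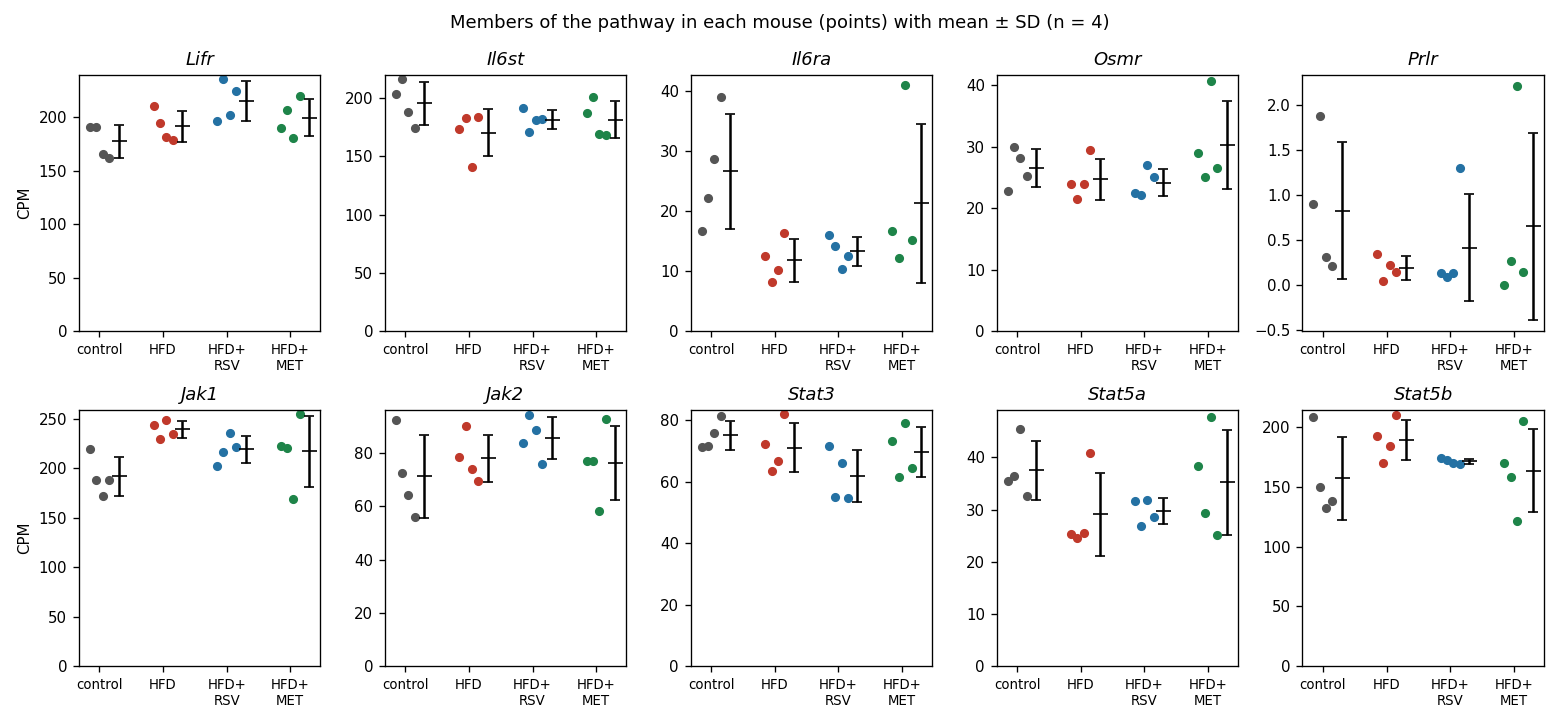
CPM of each gene in each mouse, by group, with the mean ± SD (n = 4) to the right of the points; each panel has its own axis from 0 (Prlr from below 0 because the error bars reach there). The control and HFD mice are apart for Il6ra (16.7 to 39.0 against 8.15 to 16.4 CPM) and Jak1 (172 to 219 against 230 to 249 CPM) and overlap for the others.

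The second comparison asked what resveratrol did in mice on the high-fat diet. None of the 10 genes was called, and 0% of all genes were (725 genes, or 4.72%, at an unadjusted P < 0.05, and 8 genes with DESeq2). No gene of the 10 had an unadjusted P < 0.05, and none had groups that did not overlap, which 4.2% of all genes had. The median log2FC was 0.06, beside 0.00 over all genes. Il6ra was at 16.1, 14.3, 10.4, and 12.6 CPM in the HFD + RSV mice, all within the span of 8.15 to 16.4 CPM of the HFD mice (log2FC 0.17, 95% interval -0.59 to 0.94). Jak1 was at 202, 216, 236, and 222 CPM, of which 3 mice were below all HFD mice (log2FC -0.13, 95% interval -0.37 to 0.12). The smallest P was that of Stat3, at 71.5, 54.9, 66.2, and 54.8 CPM in the HFD + RSV mice (log2FC -0.20, 95% interval -0.44 to 0.04, adjusted P = 0.999 by edgeR). Lifr followed with 0.16 (95% interval -0.04 to 0.37). Stat5b was at 174, 172, 170, and 169 CPM, the tightest of its groups, with an SD of 2.12 CPM beside 16.7 in the HFD group.

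The third comparison asked the same of metformin. None of the 10 genes was called, against 0.013% of all genes, which is 2 genes (31 with DESeq2). At an unadjusted P < 0.05 there was 1, Il6ra, against 8.02% of all genes, and no gene of the 10 had groups that did not overlap, against 3.72% of all genes. Il6ra was at 16.7, 12.3, 41.1, and 15.2 CPM in the HFD + MET mice. Mouse 3 was far above the other mice, which lay between 12.3 and 16.7 CPM beside 8.15 to 16.4 CPM in the HFD mice. The log2FC was 0.85 (SE 0.36, 95% interval 0.08 to 1.61, adjusted P = 0.618 by edgeR). Without HFD + MET mouse 3 it was 0.31 (adjusted P = 1.0 by edgeR).

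The same mouse was the highest of its group in 5 of the 10 genes and the lowest in 4. It was highest for Il6ra, Osmr (40.7 CPM against 25.0 to 28.9 in the other HFD + MET mice), Prlr, Stat3 (79.2 CPM), and Stat5a (47.8 CPM), and lowest for Lifr (181 CPM), Jak1 (169 CPM against 221 to 255), Jak2 (58.3 CPM), and Stat5b (121 CPM). It had the highest white adipocyte sum of the 16 mice, and its muscle fiber markers summed to 175000 CPM, where the other HFD + MET mice had 253000 to 291000 CPM. The part of its cell makeup in these values was not tested. The log2FC of the other genes in HFD + MET against HFD was between -0.21 for Stat5b and 0.29 for Osmr, apart from 1.78 for Prlr (95% interval -0.78 to 4.35), which was -0.34 without this mouse.

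**Figure D3:**
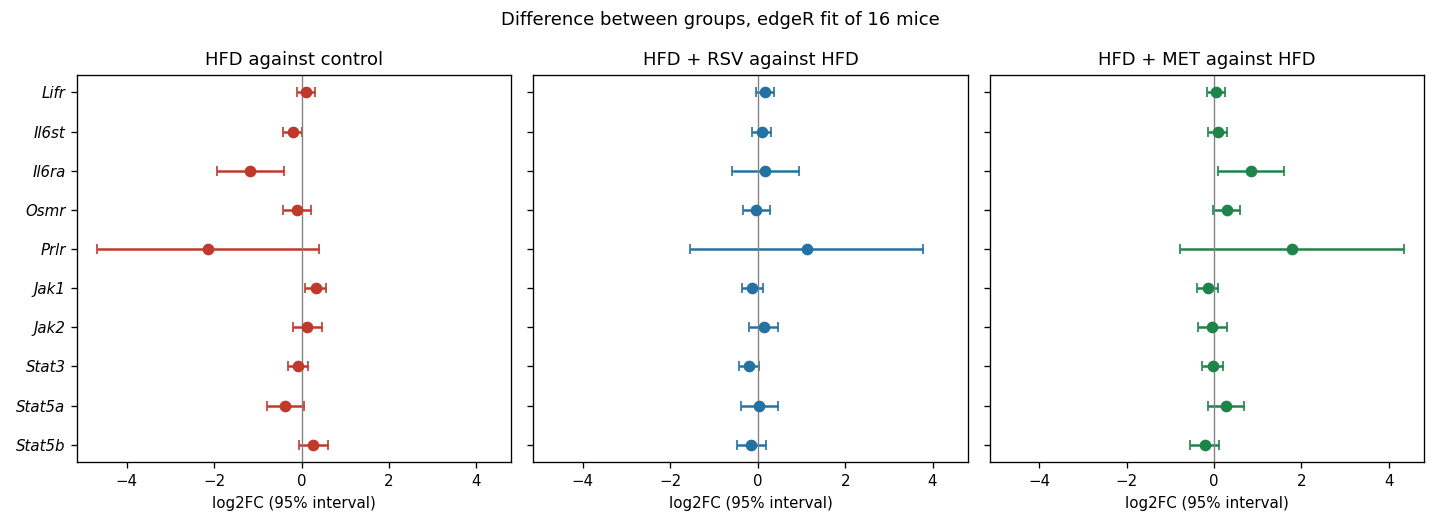
log2FC of each gene in 3 comparisons, with 95% intervals from edgeR's fit to 16 mice. The interval of Il6ra leaves out 0 in HFD against control (-1.94 to -0.40) and in HFD + MET against HFD (0.08 to 1.61), that of Jak1 leaves out 0 in HFD against control (0.08 to 0.56), and no gene passed the adjusted P.

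Against the control group, which these comparisons share with the first, none of the 10 genes was called in the HFD + RSV group (0.00651% of all genes, 1 gene, and 359 with DESeq2). Lifr, Il6ra, and Stat3 had an unadjusted P < 0.05, against 15.8% of all genes. Lifr, Il6ra, and Stat5a had groups that did not overlap, against 11.3%. Lifr was at 197 to 236 CPM in the HFD + RSV mice and at 162 to 191 CPM in the control mice (log2FC 0.27, adjusted P = 0.214 by edgeR). Il6ra was at 10.4 to 16.1 CPM beside 16.7 to 39.0 CPM (log2FC -0.997, adjusted P = 0.219 by edgeR). Stat3 was at 54.8 to 71.5 CPM beside 71.4 to 81.4 CPM, so that the groups met at 1 mouse each (log2FC -0.28, adjusted P = 0.257 by edgeR). Stat5a was at 26.8 to 31.8 CPM beside 32.5 to 45.5 CPM (log2FC -0.34, adjusted P = 0.419 by edgeR).

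In the HFD + MET group against the control group, none was called (0% of all genes, and 141 genes with DESeq2), none had an unadjusted P < 0.05 (9.5% of all genes), and none had groups that did not overlap (3.53%). Il6ra had a log2FC of -0.32 there, and -0.86 (adjusted P = 0.124 by edgeR) without HFD + MET mouse 3. Between the drugs, none was called (0% of all genes, and 10 genes with DESeq2) or had groups that did not overlap (1.56%). At an unadjusted P < 0.05, against 4.68% of all genes, there was 1, Osmr, at 22.5, 22.2, 27.0, and 25.0 CPM in the HFD + RSV mice and 28.9, 25.0, 40.7, and 26.6 CPM in the HFD + MET mice (log2FC -0.33, adjusted P = 0.962 by edgeR). Without HFD + MET mouse 3 the log2FC of Osmr was -0.15, and it was no longer at an unadjusted P < 0.05. In a test of any difference among the 4 groups, the smallest P was that of Il6ra (adjusted P = 0.241 by edgeR), none of the 10 was called, and 0.117% of all genes were.

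Ratios within a mouse do not depend on the library size. The specific chains were set against the shared chain, and Stat5a against the sum of both STAT5 genes, from FPKM. The control mice had a log2 ratio of Il6ra to Il6st of -2.58 ± 0.635, beside -3.81 ± 0.592 for HFD, -3.43 ± 0.406 for HFD + RSV, and -3.02 ± 0.600 for HFD + MET (mean ± SD, n = 4 each). The log2 ratio of Lifr to Il6st was -0.54 ± 0.0569 for control and -0.07 ± 0.299 for HFD, and all 4 HFD mice were above all control mice (exact two-sided permutation P = 0.0286, the smallest that 4 mice against 4 allow). Stat5a made up 24.4% ± 5.42 of the STAT5 sum for control, 16.7% ± 2.64 for HFD, 18.2% ± 1.59 for HFD + RSV, and 23.3% ± 9.64 for HFD + MET. For both the Il6ra ratio and the Stat5a share, the exact permutation P of HFD against control was 0.0571. After adjustment over the 9 tests of 3 ratios in 3 comparisons, the smallest P was 0.171 by the exact permutation test, so none of the ratios passed.

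Below the level of genes, 41 of the 61 transcripts had enough counts to be tested and none was called, against 0.0157% of all transcripts in HFD against control, 0% in HFD + RSV against HFD, and 0.00449% in HFD + MET against HFD. At an unadjusted P < 0.05 there were 4, 3, and 1 of them, against 13.1%, 5.02%, and 6.07% of all transcripts. One transcript made up nearly all of Jak1 (ENSMUST00000102781, 96.9% to 98.8% of the gene's counts in a mouse) and Stat5b (ENSMUST00000107358, 91.3% to 95.3%). The main Il6st transcript ENSMUST00000183663 held 69.2% to 82.2%. For Osmr, ENSMUST00000022746 held 57.3% to 67.2%, and ENSMUST00000177263, annotated as a retained intron, held 13.1% to 18.4%. The main Jak2 transcript ENSMUST00000065796 held 68.0% to 100% of its counts. The Prlr transcripts ENSMUST00000124470 and ENSMUST00000005400 had 0 to 47 and 0 to 10 counts per mouse, too few to be tested. Stat3 was split among ENSMUST00000092671, ENSMUST00000103114, and ENSMUST00000127638, at 35.4% to 40.5%, 22.4% to 34.6%, and 15.4% to 29.0% of its counts.

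Lifr had 2 main coding transcripts with different starts and ends. ENSMUST00000171588 (9655 bases) held 91.3% to 93.2% of the counts in 13 mice, and ENSMUST00000067190 (4143 bases) had 153 to 378 counts there. In HFD mouse 1, HFD mouse 4, and HFD + MET mouse 3, the shorter one had 1705, 2043, and 2145 counts, or 35.0%, 52.5%, and 50.2% of the gene. The Lifr counts of these mice, 4877, 3893, and 4274, were within the range of the others, while their Lifr FPKM of 26.9, 30.2, and 33.6 was above that of all other mice (17.9 to 25.4). FPKM divides the counts of each transcript by its length. The log2FC of the shorter transcript was 2.35 in HFD against control (SE 0.80, adjusted P = 0.24 by edgeR), with HFD mice 2 and 3 at 5.78% and 6.01% of the gene's counts beside 4.49% to 5.97% in the control mice. From counts in place of FPKM, the log2 ratio of Lifr to Il6st differed by 0.31 between the HFD and control groups, beside 0.47 from FPKM.

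Il6ra had 2 coding transcripts, ENSMUST00000197679 (8639 bases) and ENSMUST00000029559 (3343 bases). In the control mice, the longer one held 53.5%, 49.8%, 50.5%, and 50% of the counts, an even split in each. In the HFD mice it held 93.8%, 22.4%, 83.6%, and 39.8%, in the HFD + RSV mice 57.2%, 41.5%, 69.8%, and 27.0%, and in the HFD + MET mice 16.8%, 49.8%, 88.8%, and 65.4%. The split went far in both directions in the groups on the high-fat diet. The counts of the shorter transcript were 138 to 375 in the control mice and 18 to 215 in the HFD mice (log2FC -1.47, adjusted P = 0.357 by edgeR). Stat5a varied too, since ENSMUST00000004145 held 18.9% to 84.8% of its counts, ENSMUST00000107357 held 0% to 62.2%, ENSMUST00000107356 held 0% to 46.7%, and ENSMUST00000154087, a processed transcript, held 5.95% to 17.8%. The extremes of the first were in HFD mouse 3 (18.9%) and HFD + MET mouse 1 (84.8%). The control mice spanned 34.4% to 67.4% for this transcript. The highest share of ENSMUST00000107356 was in control mouse 4 (46.7%). The transcripts of a gene share exons, and the counts were the authors' assignment of shared fragments to them.

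**Figure D4:**
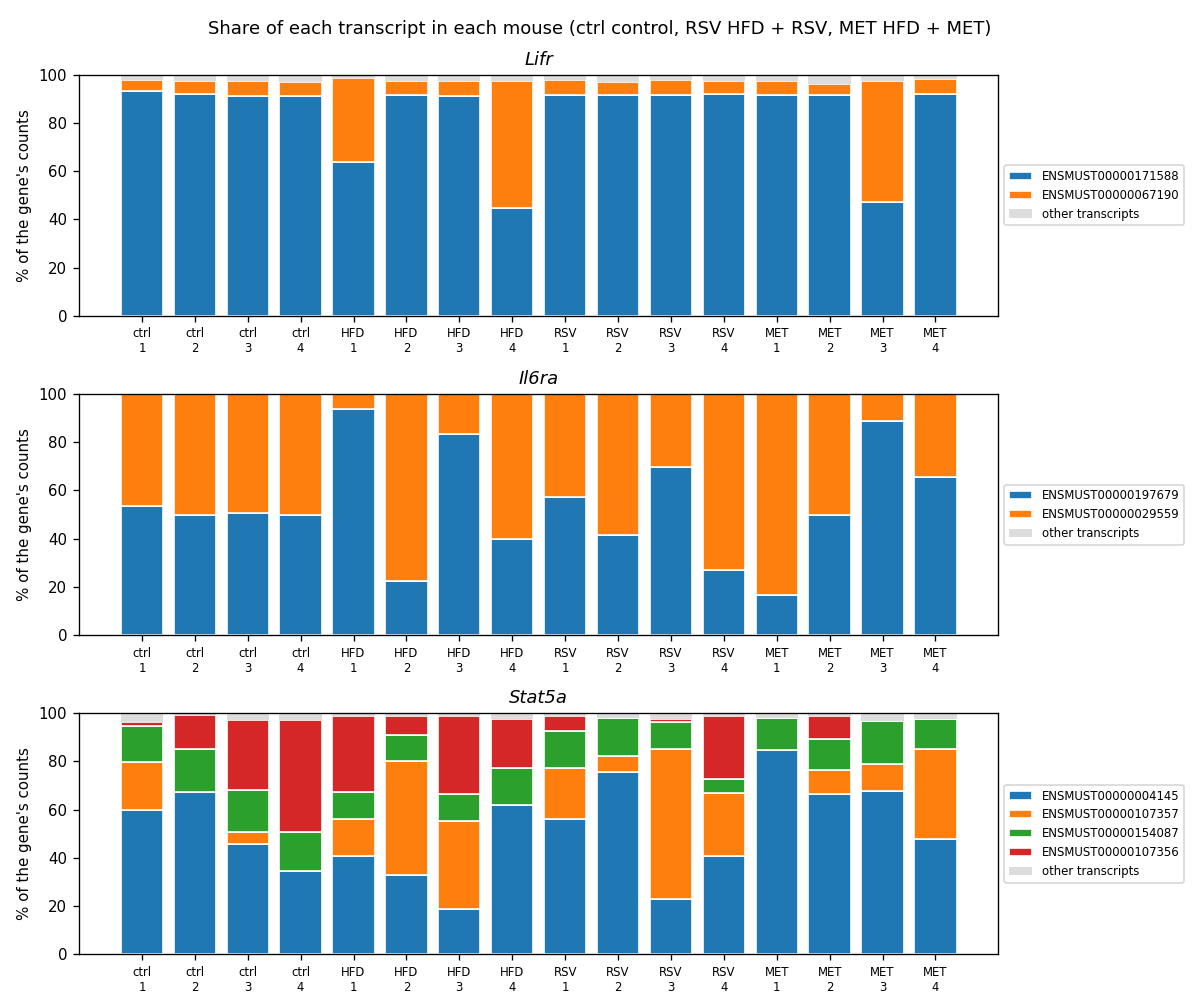
Percent of each gene's counts held by each transcript with at least 10% of the counts over all mice, in 16 mice, for Lifr, Il6ra, and Stat5a. The shorter Lifr transcript holds 35.0%, 52.5%, and 50.2% in HFD mouse 1, HFD mouse 4, and HFD + MET mouse 3, and the Il6ra split is close to even in the 4 control mice.

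The separate table of lncRNAs had 22 rows that overlapped 8 of the 10 genes, of which 8 rows had enough counts to be tested. In HFD against control, 1 of these was called, against 1.61% of all lncRNA rows tested. It was NONMMUT034365.2 (chr19:29272828-29276504), of whose 3677 bases 118 were in Jak2 exons and the others in introns. The CPM given for it are of the lncRNA table, without TMM factors. This row was at 19.2, 23.9, 26.4, and 23.4 in the control mice and at 29.8, 36.0, 33.0, and 29.9 in the HFD mice. In the fit with TMM factors, it rose in the HFD group by a log2FC of 0.63 (SE 0.13, adjusted P = 0.0294 by edgeR). In CPM without TMM factors, its groups did not overlap. Neither did those of NONMMUT147735.1 in Il6ra (24.8 to 43.9 in control, 8.91 to 20.2 in HFD) and NONMMUT012032.2 in Stat5b (46.2 to 55.2, 35.6 to 41.6). These rows were not called (adjusted P of 0.492 and 0.355 by edgeR). The share of all lncRNA rows with groups apart is not given here. The Jak2 row was at 26.4 to 35.2 in the HFD + RSV mice and 23.6 to 31.1 in the HFD + MET mice, with adjusted P of 0.931 and 0.592 by edgeR against HFD. The Jak2 mRNA itself had a log2FC of 0.13. How the counting used strand is not given in the sources used here, so reads of this row and of unspliced Jak2 RNA cannot be told apart.

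The receptors' wider pathway was followed with a list of 73 genes, of which 63 had enough counts. In HFD against control, 1 of the 63 was called, against 2.43% of all genes, with 12 genes higher and 11 lower at an unadjusted P < 0.05, against 24.2% of all genes in either direction. The counts by role that follow are read against the same 24.2%. The called gene was Socs1, an inhibitor of JAK kinases, at 0.364 to 0.708 CPM in the control mice and 1.3 to 6.57 CPM in the HFD mice (log2FC 2.52, SE 0.52, adjusted P = 0.0336 by edgeR). Socs1 rested on 7 to 22 counts in the control mice and 30 to 143 in the HFD mice. All 17 inhibitors were tested, and 6 were higher and 0 lower at an unadjusted P < 0.05. Beside Socs1, Cish (log2FC 2.31, adjusted P = 0.0573) and Socs3 (log2FC 1.43, adjusted P = 0.0604), both STAT-induced members of the SOCS family, did not pass by edgeR. Of the 15 target genes, 2 were higher and 8 lower at an unadjusted P < 0.05, with log2FC of 0.94 for Bcl6, 0.77 for Ccnd1, -1.34 for Junb, -1.03 for Cebpd, and -0.74 for Igf1. The targets had both signs, and 0 of them passed the adjusted P.

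Among the 19 other receptors tested, 4 were higher and 2 lower at an unadjusted P < 0.05, such as Cntfr, the ciliary neurotrophic factor chain (log2FC 0.83, adjusted P = 0.103), and Il10ra, an interleukin-10 receptor chain of leukocytes (log2FC -0.77, adjusted P = 0.0916), by edgeR. Ghr, the growth hormone receptor, had a log2FC of 0.23, and Lepr, the leptin receptor, of -0.51, with adjusted P of 0.375 and 0.32 by edgeR. Of 14 ligands, 7 had enough counts, and 1 was lower at an unadjusted P < 0.05. The 5 other kinases and STATs had 0 in either direction.

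No gene of the list was called in HFD + RSV against HFD (5 higher and 6 lower at an unadjusted P < 0.05, where 4.72% of all genes were in either direction) or in HFD + MET against HFD (4 and 4, where 8.02% were). These share the HFD mice, and so the label number that only those mice carried, with the first comparison. Socs1 was at 0.447 to 0.867 CPM in the HFD + RSV mice and 0.262 to 1.10 CPM in the HFD + MET mice, below all HFD mice (log2FC -2.37 and -2.11, adjusted P of 0.999 and 0.44 by edgeR). Cish was at 7.02 to 16.4 CPM in the HFD + RSV mice beside 52.4 to 98.0 CPM in the HFD mice (log2FC -2.54, adjusted P = 0.999 by edgeR). In the HFD + MET mice, Cish was at 17.0, 8.99, 61.1, and 6.58 CPM, so that mouse 3 was within the HFD range and the others were near the control mice (6.97 to 20.7 CPM).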

How the data were processed

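Ribosomal RNA was removed from the skeletal muscle RNA of 16 mice, and paired ends were sequenced on a NovaSeq instrument. Per the labels, fastp, HISAT2, and GRCm38 were used. The authors counted fragments with StringTie and deposited expected counts per transcript and mouse, which were whole numbers, and beside each an FPKM value. Of the deposited mRNA rows, 4 were split over 2 lines and were joined. The coordinates of 97.4% of the mRNA rows, and of all 61 rows used here, equal those of GENCODE M21.

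Counts were summed per gene name and fitted for all 16 mice together with edgeR 4.0.16 in R 4.3.3 (filterByExpr with groups, at least 10 counts and 15 in total, TMM, robust quasi-likelihood), with Benjamini-Hochberg adjustment over 15364 genes, 44573 transcripts, or 17599 lncRNA rows. Levels between genes were compared as deposited FPKM. In simulated data, 100% of 200 genes changed at a log2FC of 2 were recovered in HFD against control, among 15223 genes. The simulation gave every gene the same spread between mice and changed no gene of low level. It does not show how often such a change is found in genes that vary more between mice. Over both tables, total counts were 20281801 to 34021101 per mouse, and the common coefficient of variation between mice was 0.261 for genes. Each mouse gave 1 library, so P-values set the differences between groups against the spread between mice. In edgeR, the groups shared the estimate of that spread.

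The genes and lists were chosen with earlier results of these data known. All 10 genes are named. Of the pathway list, the called gene and genes picked after their values were seen are named, and of the transcripts, those with at least 10% of a gene's counts and 1 smaller Jak2 transcript picked after its values were seen. The alternatives were DESeq2 1.42.0, RLE size factors, no filter, library sizes over both tables, 2 groups in the fit, a call by unadjusted P and fold, the most abundant transcript, counts in place of FPKM, leaving out each mouse, and, added after seeing the data, leaving out the 2 mice of highest Ucp1.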

Additional observations from a re-analysis of the deposited data

Results flagged for a closer look

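Dixon's test at the 95% level was applied to the log2 CPM of each gene within each group of 4 mice. Of 40 groups, 2 had a mouse far from the others, and chance alone gives about 1 in 20. Prlr was at 1.3 CPM in HFD + RSV mouse 4, on 29 counts, with a gap of 0.883 of the group's range to the nearest mouse. Stat5a was at 40.9 CPM in HFD mouse 4, with a gap of 0.926 of the range to the other HFD mice, which were at 24.6 to 25.5 CPM.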

How the results depend on the processing

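No paired analysis was possible because the replicate numbers only name the mice in the order of their samples and pair none of them. In HFD against control, 0 of the 10 genes were called, and this became 2 with DESeq2, 1 by unadjusted P and fold, 1 without the mice of highest Ucp1 (added after seeing the data), and 0 to 2 over fits that left out 1 mouse each, with 2 without HFD + MET mouse 3. For any difference among the 4 groups, 0 became 1 with DESeq2 and 0 to 1 when 1 mouse was left out, with 1 without HFD + MET mouse 3. By unadjusted P and fold, 0 transcripts called became 2 in HFD against control, 1 in HFD + RSV against HFD, and 1 in HFD + MET against HFD. The shares of all genes and of all transcripts called in the same ways are not given here, so these counts have no background to be read against. The log2 ratio of Lifr to Il6st in HFD + RSV against HFD turned to 0.067 from counts, and that in HFD + MET against HFD ranged from -0.193 to 0.0359 without 1 mouse. Of 60 log2FC of single genes, none of them called, 17 changed sign under some setting, as 14 of 414 values for other settings and 29 of 960 values without 1 mouse. With the most abundant transcript, Lifr was at -0.204 in HFD against control, Il6ra at -0.148 in HFD + RSV against HFD, and in HFD + MET against control Il6ra was at 0.0234, Jak2 at -0.0169, and Stat5a at 0.311. That of Prlr had too few counts for a value. In HFD + RSV against HFD + MET, Il6st was at 0.00376 with DESeq2, 0.00373 with RLE size factors, 0.0234 with library sizes over both tables, and 0.00801 with no filter. Without the mice of highest Ucp1, Jak1, Stat5b, and Prlr were at -0.0811, -0.048, and 1.47 there, and Jak2 and Prlr at 0.0752 and -0.339 in HFD + MET against HFD. The log2FC that changed sign without 1 mouse had the following ranges. In HFD + RSV against HFD + MET, these were Il6st from -0.0358 to 0.0542, Jak1 from -0.0888 to 0.1, Prlr from -2.42 to 1.47, and Stat5b from -0.056 to 0.19. In HFD + MET against HFD, these were Jak2 from -0.142 to 0.0757, Prlr from -0.342 to 2.26, and Stat3 from -0.0975 to 0.0455. In HFD + MET against control, these were Jak2 from -0.0114 to 0.245, Prlr from -2.49 to 0.491, Stat5a from -0.278 to 0.0381, and Stat5b from -0.0657 to 0.227. In HFD + RSV against HFD, these were Osmr from -0.0945 to 0.0608, Prlr from -0.637 to 1.6, and Stat5a from -0.0402 to 0.242. The cause was not tested. The calls of Socs1 and of the lncRNA row were not recomputed under these settings. Prlr rested on 0 to 58 counts per mouse.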

Other observations

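A minor transcript of Jak2 had most of its counts in 2 mice. ENSMUST00000025705, a Jak2 transcript of 4947 bases beside the main ENSMUST00000065796 of 5030 bases, had 448 counts in HFD + MET mouse 1 and 102 in HFD mouse 2, and 0 to 3 in each of the other mice. The share of the main transcript in HFD + MET mouse 1 was 68.0% of the Jak2 counts. These values were chosen after they were seen.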
